A study of Mus musculus with 12 samples.

Results

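The genes described here are Nes, Vim, Fabp7, Slc1a3, Ptprz1 and Ednrb, 6 structural, transport and receptor genes of radial glia. They were chosen by gene symbol, and 8 of the 21738 probes on the array carry these symbols. Each gene had 1 probe except Slc1a3, which had 3, named by their accessions L19565, U75378 and U75375. Of the 8 probes, 7 entered the test, as did 9155 probes in all; the eighth, U75375 of Slc1a3, had no measured value at 24 h.

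Mouse cortical neurospheres, balls of dividing neural progenitors that grow in suspension, were profiled on 12 arrays, with 3 arrays in each of 4 groups. All were derived from cortex at gestational day 12.5 and grown without serum in basic fibroblast growth factor, epidermal growth factor and leukemia inhibitory factor, so the controls carried these factors too. Control cultures received growth medium only, for 24 h or 108 h. Prominin cultures, also labelled 24 h or 108 h, received an adenovirus expressing CD133/R-prominin1, a membrane protein of neural progenitors. The treatment text of the 24 h prominin cultures also names 108 h of virus, and the title was followed here. The design text speaks of GFP or prominin positive neurospheres, while the control labels name medium alone. Effects of the virus and of prominin therefore cannot be told apart. The labels do not say that the 3 arrays of a group came from separate cultures, so every p-value measures the spread between these arrays, which may be technical. Nothing in the labels separates the stem cells of a sphere from its other cells, and in such mixed RNA fewer cells of a type and less RNA per cell cannot be told apart.

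Radial glia are the progenitors of the embryonic cortex: their bodies line the ventricle, and their long fibres guide newborn neurons outwards. Nestin (Nes) and vimentin (Vim) are intermediate filament proteins of those fibres. Fabp7, the brain lipid binding protein, carries fatty acids, and Slc1a3, also known as GLAST, takes up glutamate. Ptprz1 is a receptor tyrosine phosphatase whose ligand is pleiotrophin, and Ednrb is the endothelin B receptor, coupled to G proteins. Most of these genes stay active in astrocytes, so none of them marks radial glia alone.

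The RefSeq promoter table (build GRCm38.p6) matched 6 of 6 genes, and the 250 bases upstream of the start site were searched on both strands for 4 short motifs. The TATA box was searched as TATAAA. The CCAAT box was searched by those 5 letters. For the GC box the letters searched were GGGCGG. For the core of the site of RBPJ, the DNA-binding partner of Notch, they were TGGGAA. No match overlaps another in these windows. Below are the windows of Nes and Vim, the pair of filament genes, and of Fabp7 and Ptprz1, the least variable gene after Vim and the gene with the smallest p-value between times. All lie on the plus strand, and capitals mark the motif letters. Nes lies at chr3:87970843-87971092, Vim at chr2:13574061-13574310, Fabp7 at chr10:57784673-57784922 and Ptprz1 at chr6:22875252-22875501.
Nes: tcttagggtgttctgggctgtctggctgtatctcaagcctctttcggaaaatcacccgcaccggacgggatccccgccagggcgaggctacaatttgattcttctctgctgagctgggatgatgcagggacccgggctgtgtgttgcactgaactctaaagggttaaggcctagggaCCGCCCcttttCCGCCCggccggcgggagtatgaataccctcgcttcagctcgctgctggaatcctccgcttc
Vim: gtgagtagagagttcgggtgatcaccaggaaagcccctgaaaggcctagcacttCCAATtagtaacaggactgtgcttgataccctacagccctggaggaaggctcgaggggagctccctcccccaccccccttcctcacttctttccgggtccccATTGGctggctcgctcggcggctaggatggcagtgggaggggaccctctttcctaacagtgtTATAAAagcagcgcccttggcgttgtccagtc
Fabp7: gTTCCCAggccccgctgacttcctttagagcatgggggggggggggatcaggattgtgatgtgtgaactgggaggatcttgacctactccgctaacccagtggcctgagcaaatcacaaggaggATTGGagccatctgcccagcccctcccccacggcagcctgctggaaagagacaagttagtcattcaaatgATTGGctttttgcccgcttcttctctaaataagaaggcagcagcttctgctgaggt
Ptprz1: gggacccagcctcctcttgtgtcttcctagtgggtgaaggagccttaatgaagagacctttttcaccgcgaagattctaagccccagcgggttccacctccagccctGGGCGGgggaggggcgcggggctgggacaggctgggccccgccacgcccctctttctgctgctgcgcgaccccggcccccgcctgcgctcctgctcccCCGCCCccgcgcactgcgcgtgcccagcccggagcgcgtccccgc
The Nes window held 2 GC boxes and no TATA or CCAAT box, and Ptprz1 likewise held 2 GC boxes only. The Vim window held a TATA box 32 bases before the start and 2 CCAAT boxes. Fabp7 held 2 CCAAT boxes and 1 match to the RBPJ core, 249 bases before the start. Of the windows not shown, Slc1a3 held 3 CCAAT boxes, 1 GC box and 1 TATA box, and Ednrb held 2 CCAAT boxes. The TATA letters of Slc1a3 lay on the reverse strand, 161 bases before the start. A CCAAT box was thus present in 4 of 6 genes and in 33.8% of 32851 mouse promoter windows, a GC box in 3 of 6 and 32.7%, a TATA box in 2 of 6 and 12.4%, and the RBPJ core in 1 of 6 and 21.6%. The Ptprz1 window was 71.6% G or C, that of Slc1a3 44.8%, and the median window 52.4%. These are matches of letters, and the arrays say nothing of binding at them.

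Every array set Cy5-labelled neurosphere RNA against Cy3-labelled RNA of whole C57/Bl6 embryos at gestational day 12, with no dye swap. The deposited value is a log2 ratio, taken here as neurosphere over embryo. That direction is likely but not stated: it rests on the order of channels in the design text and on genes of blood, liver and muscle, which lay far below the median. With the sign turned, every "higher" below would read "lower". Values were centred on each array's median probe, so 0 is the median probe and not equality with the embryo. Measured probes per array numbered 10404 to 14465 for the 24 h cultures, and 15944 to 16598 for the later ones. Whole-number ratios (1 to 20, or their inverse, within 0.00051 on the log2 scale) made up 16.8% to 40.2% of what a 24 h array measured, against 1.94% to 5.34% on the 108 h arrays. The array medians ran from -2.59 to -0.84 on the log2 scale. Arrays of a group correlated at r = 0.604 to 0.783 over probes, and arrays of different groups at 0.552 to 0.781. The native Prom1 probe was measured on 9 of 12 arrays. Its centred log2 ratios were 1.72 and 0.66 in 24 h controls, -1.62 and -0.45 in 24 h prominin cultures, -2.51, -2.33 and -4.34 in 108 h controls, and -0.11 and -0.85 in 108 h prominin cultures. By point estimate Prom1 was lower with prominin at 24 h (-2.23) and higher at 108 h (2.58), and neither difference passed the limma test (adjusted p = 0.998 and 0.717). The labels do not say whether this probe reads the viral RNA, so it does not check them.

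Neurospheres carried more RNA of 5 of the 6 genes, relative to the median probe, than the embryo reference. The levels were 2.76 for Vim, 3.66 for Fabp7, 4.25 for Ednrb, 4.44 for Ptprz1, and 5.68 and 5.89 for the Slc1a3 probes U75378 and L19565, as the mean log2 ratio over the 4 groups. These correspond to 6.77-fold over the median probe for Vim and 59.4-fold for the higher Slc1a3 probe. Nes was the exception, at 0.34. By limma, 6 of 7 probes were called higher at an adjusted p of 0.05, against 30.4% of all tested probes (55.8% in either direction). Before centring, as ratios to the embryo itself, the same 6 probes stayed above 0 and were called, from 1.16 for Vim to 4.29 for L19565. Nes then lay at -1.26, a ratio of 0.417 to the embryo, and was called lower (limma adjusted p = 0.000827). Whether the authors had scaled the deposited ratios is not given in the sources used here.

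**Figure D1:**
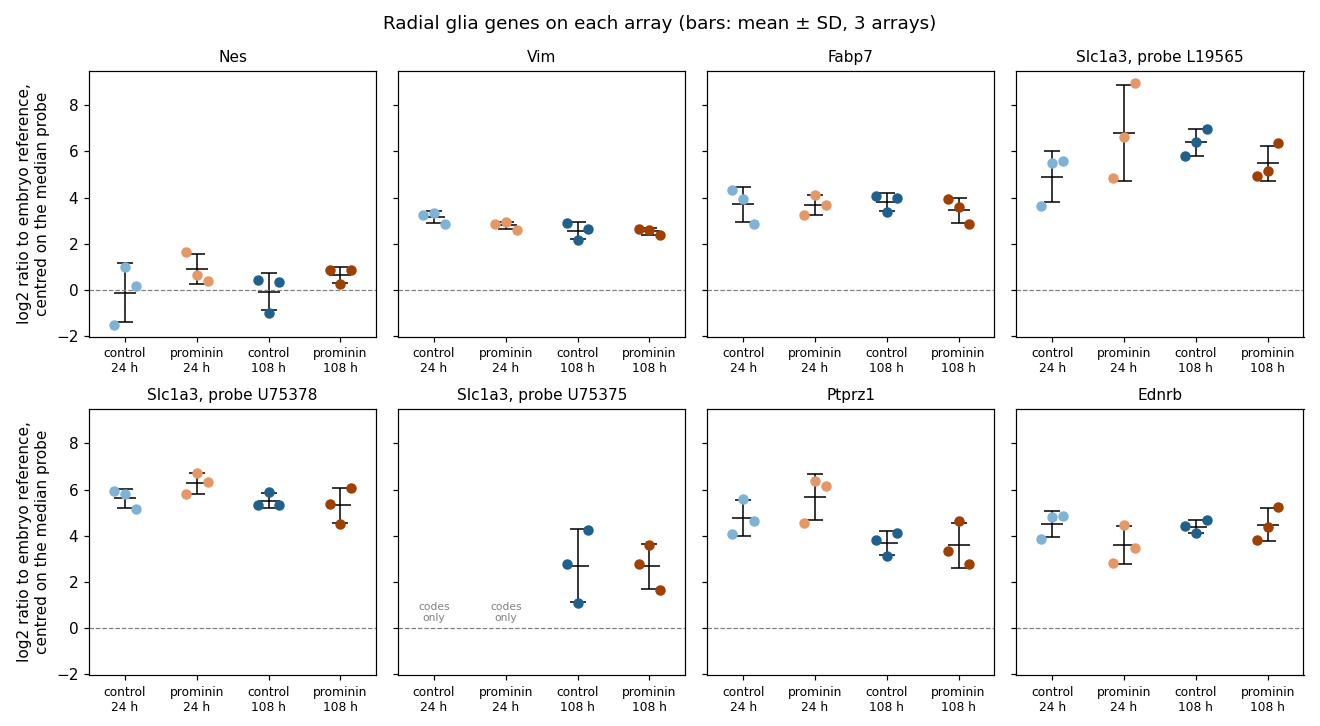
Centred log2 ratio to the embryo reference (vertical axis, 0 is the array's median probe) for each probe of the 6 genes, by group; points are arrays and bars the mean and SD of 3 arrays. Vim stays between 2.16 and 3.34 on all 12 arrays, Nes lies around 0, and the Slc1a3 probe U75375 has values at 108 h only.

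Among the filament genes, the Nes values were -1.51, 1.01 and 0.15 on the 24 h control arrays and 1.63, 0.63 and 0.40 on the 24 h prominin arrays. At 108 h they were 0.42, -1.0 and 0.36 in controls and 0.88, 0.25 and 0.84 in prominin cultures. Both values below 0 came from control arrays, and every pair of groups overlapped. The level of 0.34 (SE 0.26, limma adjusted p = 0.285) did not pass the test.

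Vim gave 3.25, 3.34 and 2.86 in 24 h controls and 2.85, 2.92 and 2.61 in 24 h prominin cultures. It gave 2.91, 2.16 and 2.64 in 108 h controls and 2.63, 2.58 and 2.38 in 108 h prominin cultures. This filament, also made by mesenchymal cells, was the steadiest of the 6 genes. Its SD over the 12 arrays was 0.336, and 97.9% of the 4532 probes measured on all arrays varied more. The level was called (SE 0.17, limma adjusted p = 2.83e-07). From highest to lowest, its group means ran 24 h control (3.15 ± 0.25), 24 h prominin (2.79 ± 0.16), 108 h control (2.57 ± 0.38) and 108 h prominin (2.53 ± 0.13; SD, n = 3 each). Neighbouring groups in that order overlapped.

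The filament pair could also be set side by side within each array, where centring cancels. The log2 ratio of Vim exceeded that of Nes on 12 of 12 arrays, by 2.42 ± 0.90 (SD, n = 12), from 1.22 to 4.76. The mean gap was 3.27 in 24 h controls, 1.91 in 24 h prominin cultures, 2.64 in 108 h controls and 1.87 in 108 h prominin cultures. So Vim RNA stood higher over the embryo's Vim RNA than Nes RNA did over the embryo's Nes RNA. It does not show that spheres held more Vim than Nes.

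**Figure D2:**
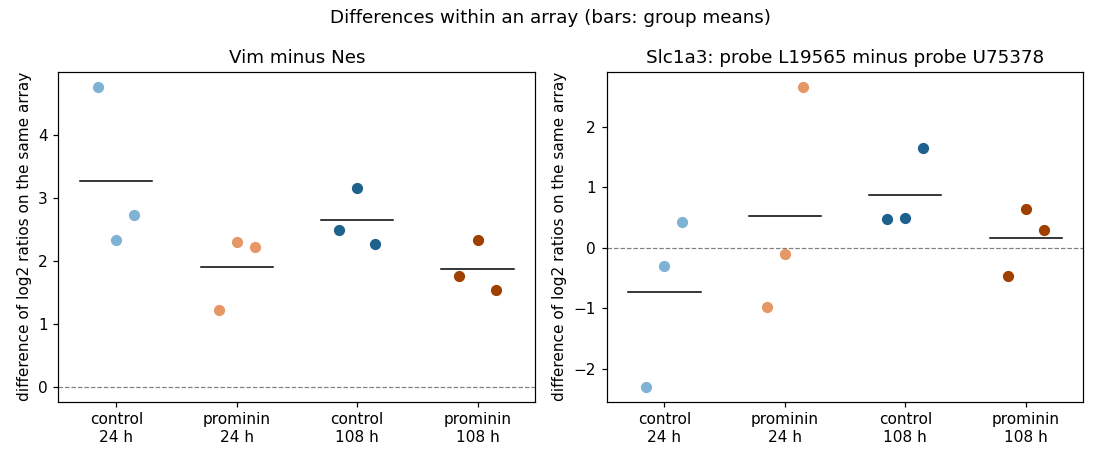
Difference of log2 ratios on the same array (vertical axes) by group, for Vim minus Nes (left) and for the Slc1a3 probe L19565 minus probe U75378 (right); points are arrays and lines group means. All 12 Vim minus Nes points lie above 0, from 1.22 to 4.76, while the Slc1a3 probes differ in both directions, from -2.29 to 2.66.

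Fabp7, the fatty acid carrier, gave 4.33, 3.94 and 2.84 in 24 h controls and 3.24, 4.12 and 3.68 in 24 h prominin cultures. It gave 4.06, 3.36 and 3.99 in 108 h controls and 3.93, 3.57 and 2.87 in 108 h prominin cultures. The 4 groups overlapped throughout, and the group means lay between 3.46 and 3.80. Its SD of 0.490 was exceeded by 90.2% of probes, and the level of 3.66 was called (SE 0.21, limma adjusted p = 1.46e-07).

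The glutamate transporter Slc1a3 was read by 3 probes that did not give the same picture. Probe U75378 gave 5.92, 5.80 and 5.15 in 24 h controls, 5.80, 6.72 and 6.31 in 24 h prominin cultures, 5.34, 5.90 and 5.33 in 108 h controls, and 5.37, 4.51 and 6.06 in 108 h prominin cultures. Probe L19565 spread further: 3.63, 5.50 and 5.57, then 4.83, 6.61 and 8.97 at 24 h, and 5.82, 6.39 and 6.98, then 4.92, 5.15 and 6.36 at 108 h, controls first each time. Both levels were called (U75378: SE 0.21, limma adjusted p = 1.28e-08; L19565: SE 0.35, limma adjusted p = 1.8e-07). The SD over arrays was 0.583 for U75378 and 1.34 for L19565, and across the 12 arrays the probes correlated at r = 0.38. Within an array L19565 exceeded U75378 on 7 of 12 arrays, by 0.21 ± 1.24 on average (SD, n = 12). The third probe, U75375, carried only codes at 24 h, namely the top code on control arrays 1 and 2 and 0 on the other 4. At 108 h it gave 2.76, 1.10 and 4.26 in controls and 2.76, 3.59 and 1.67 in prominin cultures. Its mean ratio of 2.69 over those 6 arrays lay below the group means of both other Slc1a3 probes, and it was not tested. Where the 3 probes sit in the transcript is not given in the sources used here.

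Ptprz1, the pleiotrophin receptor, gave 4.08, 5.61 and 4.64 in 24 h controls and 4.55, 6.36 and 6.14 in 24 h prominin cultures. At 108 h it gave 3.80, 3.14 and 4.14 in controls and 3.33, 4.66 and 2.77 in prominin cultures. The 24 h arrays tended to be high and the 108 h arrays low, with 108 h control array 3 and 108 h prominin array 2 inside the 24 h range. Its group means fell in the order 24 h prominin (5.68 ± 0.99), 24 h control (4.78 ± 0.77), 108 h control (3.70 ± 0.51) and 108 h prominin (3.59 ± 0.97; SD, n = 3 each). Neighbouring groups overlapped. The level of 4.44 was called (SE 0.26, limma adjusted p = 1.62e-07).

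Ednrb, the endothelin B receptor, gave 3.85, 4.81 and 4.84 in 24 h controls and 2.82, 4.48 and 3.49 in 24 h prominin cultures. It gave 4.41, 4.11 and 4.68 in 108 h controls and 3.83, 4.40 and 5.23 in 108 h prominin cultures. The 24 h prominin group had the lowest mean, 3.60 ± 0.84, and the other group means lay within 4.40 to 4.50 (SD, n = 3). All groups overlapped, and the level of 4.25 was called (SE 0.22, limma adjusted p = 9.08e-08).

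Prominin against control asked whether the virus and its prominin together, set against medium alone, moved these genes. None of the 7 probes passed the limma test at 24 h or at 108 h, and neither did any of the 9155 probes (0% called in both comparisons; 419 and 624 had an unadjusted p under 0.05). At 24 h the largest differences were 1.90 for Slc1a3 L19565 (95% limma interval -0.25 to 4.06), 1.00 for Nes (-0.61 to 2.62) and -0.90 for Ednrb (-2.28 to 0.48). All 7 had an adjusted p of 0.998 or more by limma. Each leaned on single arrays: L19565 differed by 0.82 without prominin array 3 and by 2.90 without prominin array 1. Nes differed by 0.29 without control array 1 and by 1.58 without control array 2, and Ednrb by -0.50 without prominin array 1. Probe U75378 of Slc1a3 differed by 0.66 (-0.62 to 1.93). At 108 h the differences ran from -0.92 for L19565 to 0.73 for Nes, with adjusted p from 0.884 to 0.993 by limma. The intervals were widest for L19565 and narrowest for Vim: at 108 h Vim differed by -0.04, with an interval from -1.11 to 1.03. A change of 1 on the log2 scale, in at least 1 direction, therefore lay inside the interval of each of the 7 probes at both times.

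Pooled over both times, Nes was 0.87 higher with prominin (95% limma interval -0.28 to 2.01, limma adjusted p = 0.959; exact two-sided permutation p = 0.1 over 400 rearrangements). The other probes differed by -0.41 to 0.49, and 0% of all probes were called (463 with an unadjusted p under 0.05). The smallest p this exact test allows is 0.005, and 14 such tests were made, with p from 0.1 to 0.61 for treatment. The prominin difference itself changed between times by -2.82 for Slc1a3 L19565 (limma unadjusted p = 0.0664, adjusted p = 0.817), from 1.90 at 24 h to -0.92 at 108 h, and by -1.74 without 24 h prominin array 3. For the other 6 probes the change lay between -1.01 and 0.99, and no probe on the array was called in it (0%; 545 with an unadjusted p under 0.05).

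**Figure D3:**
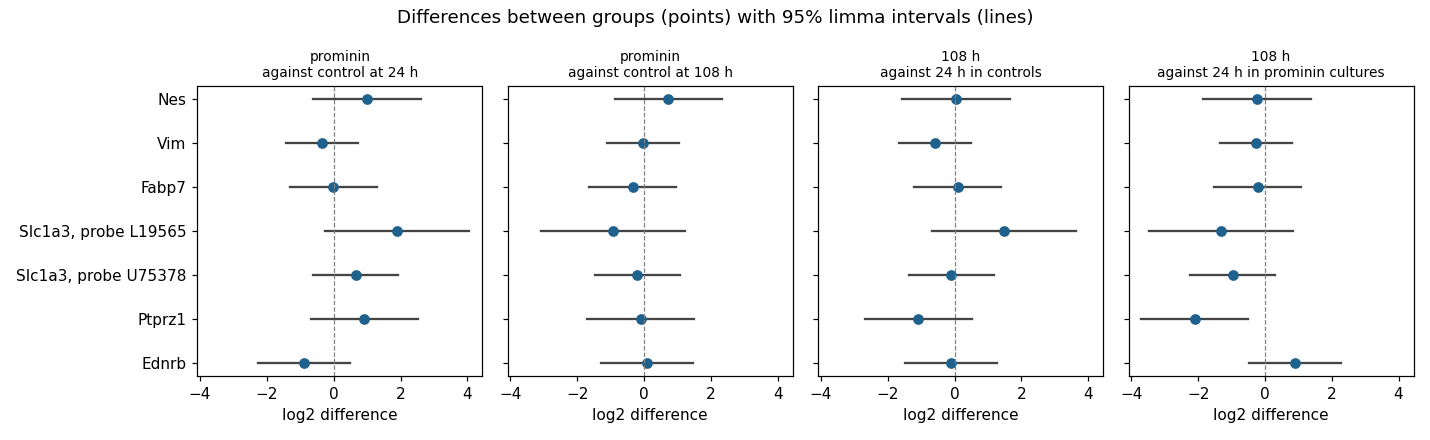
Differences between groups on the log2 scale (horizontal axes) for the 7 tested probes in 4 comparisons; points are limma estimates and lines 95% intervals. The interval of Ptprz1 at 108 h against 24 h in prominin cultures, -3.70 to -0.49, leaves out 0, all others drawn hold 0, and no value passed after adjustment.

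Culture time, 108 h against 24 h, gave the smallest p-values of the 49 between-group values, both in Ptprz1. Over both treatments Ptprz1 was 1.59 lower at 108 h by point estimate (-1.59, SE 0.52, 95% limma interval -2.72 to -0.46, unadjusted p = 0.0102). After adjustment over all probes it did not pass (limma adjusted p = 0.326), and 0.0546% of probes did. The exact two-sided permutation p was 0.02. The estimate was -2.10 in prominin cultures (limma adjusted p = 0.419) and -1.08 in controls (limma adjusted p = 0.788). Of the 6 Ptprz1 values at 24 h, 3 were whole-number ratios within that tolerance, against 0 of 6 at 108 h. Over all measured probes such ratios made up 16.8% to 40.2% of a 24 h array and 1.94% to 5.34% of a 108 h array. The part of such values in the difference was not tested. Those pooled and prominin-culture values of Ptprz1 were the 2 of 49 with an unadjusted p under 0.05, and none was called.

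Vim was 0.43 lower at 108 h by point estimate (-0.43, 95% limma interval -1.18 to 0.33, limma adjusted p = 0.743; exact two-sided permutation p = 0.025). The limma interval is wide for a gene this steady because limma draws each probe's spread towards that of all probes. Slc1a3 L19565 was 1.49 higher at 108 h in controls, where its groups did not overlap, and 1.33 lower in prominin cultures by point estimate. Without 24 h control array 1 the first value was 0.85, and without 24 h prominin array 3 the second was -0.24. On that control array the L19565 value, 3.63, was a whole-number ratio, as it was on 108 h prominin array 1. Probe U75378 of the same gene gave -0.10 in controls and -0.96 in prominin cultures. Only L19565, 1 of the 7 probes, had control groups that did not overlap between times, against 14.5% of all probes measured on every array. L19565 was not called in controls (limma adjusted p = 0.785). For Nes, Fabp7, Ednrb and U75378 the pooled time differences lay between -0.53 and 0.40. None of the 7 probes was free of overlap between times in prominin cultures (background 17.8%) or with treatments pooled (1.92%), or between treatments with times pooled (0.221%). No probe was called between times in controls (0%; 635 with an unadjusted p under 0.05), and 0.0218% were in prominin cultures.

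Before centring, the same genes separated the groups more often. At 108 h, 5 of the 7 probes did not overlap between prominin and control, against 36.2% of all probes, and at 24 h 3 of 7 did not, against 20.9%. Vim lay at 0.03 to 0.80 in the 108 h prominin cultures and at 1.32 to 1.60 in their controls. Between times, 3 of 7 did not overlap in controls and 5 of 7 in prominin cultures, against 25.6% and 34.7% of all probes. After centring none of the 7 stood apart between treatments (background 14% at 108 h and 10.4% at 24 h). The arrays' medians themselves differed by -1.08 between prominin and control at 108 h and by 0.68 at 24 h, a shift shared by the whole array. Whether it came from labelling, scanning or the cells was not tested.

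**Figure D4:**
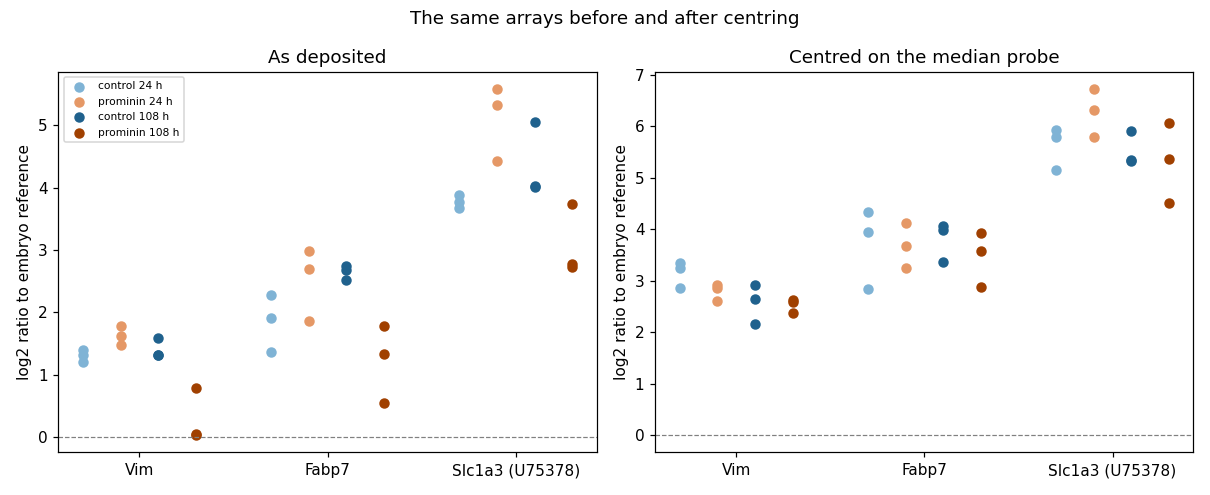
Log2 ratios to the embryo reference of Vim, Fabp7 and Slc1a3 (probe U75378) on each array, as deposited (left) and centred on the array's median probe (right); points are arrays, coloured by group. As deposited, Vim on the 108 h prominin arrays, at 0.03 to 0.80, lies below all other arrays, and Fabp7 and Slc1a3 there lie below the 108 h controls. Once centred, the 108 h groups overlap for all 3 genes.

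The 6 genes did not all move together from array to array. Centred values of Vim and Fabp7 correlated at r = 0.51 over the 12 arrays, those of Vim and Ptprz1 at 0.49, and those of Vim and Slc1a3 L19565 at -0.44. Nes correlated with the others between -0.24 and 0.23. Within groups, r over all pairs ran from -0.43 (Vim and L19565) to 0.73 (Vim and Fabp7). It was 0.56 within groups for L19565 and Ednrb. For Ptprz1 and Ednrb it was 0.44 within groups and -0.15 over the 12 arrays. As deposited, all pairs were positive, from 0.15 to 0.83, since the values of an array share its median. The probes most like Vim over the 12 arrays, among 4139 with a single symbol, were Hdgf (r = 0.91), Osmr (0.89) and Tubb6 (0.86). Those most like Ptprz1 were Septin11 (0.92), Usp39 (0.92) and Trp53inp2 (0.90), and those most like Nes were Lrr1 (0.95), Cotl1 (0.88) and Dok4 (0.87). For Fabp7 they were Azi2, Ssr3 and Tnks2 (0.87 to 0.85), and for Ednrb Npdc1, Atp6v0d1 and Tctex1d2 (0.83 to 0.81). The probe U75378 was most like Mras (0.92), Luc7l and Tmed5, and L19565 most like Mboat1, Tmem33 and Slc20a1 (0.84 to 0.83). These are the highest of 4139 or 4138 correlations per probe over 12 points that share array and scaling, and they describe these arrays only.

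The partners of each gene were listed too, and their levels are again given against the median probe. Calls for the level in these lists stand beside 30.4% of all tested probes called higher and 55.8% in either direction. Of 24 other radial glia genes, 19 were tested, with a median level of 1.51 against 0.23 for all probes, and limma called 11 higher and 2 lower. Mt3, a metallothionein of brain (6.09), and Pax6, a transcription factor of cortical progenitors (4.44, mean of its 2 probes), were highest. The Pax6 probe with the smallest p-value read 7.75, far above that mean, so its probes differed widely in level. Hes1, a Notch target (-1.66), and Nfib, a nuclear factor of glial differentiation (-1.47), were lowest. Before centring the list's median was -0.07, so its place above 0 depends on the scaling.

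Ptprz1's ligands and partners stood high as a list: 11 of 17 were tested, with a median of 3.38 (1.80 before centring), 7 called higher and 3 lower by limma. The cell adhesion protein Cntn1 (6.82, mean of 2 probes) and the matrix proteoglycan Bcan (5.73) were highest, and Ctnnb1 (-2.06) and the matrix glycoprotein Tnc (-1.95, mean of 2 probes) lowest. The Tnc probe with the smallest p-value read -4.82, far below that mean, so its 2 probes differed in level. Per array, the list's median ran from 1.37 to 1.88 in the 108 h prominin cultures. It ran from 2.79 to 3.42 in their controls, 2.48 to 2.87 in 24 h controls and 2.67 to 3.21 in 24 h prominin cultures. No gene of the list passed the limma test between those 108 h groups: the smallest p-values belonged to probes of Tnc (-2.57, adjusted p = 0.717), Nrcam (-1.82, adjusted p = 0.725) and Ncam1 (-1.93, adjusted p = 0.725). Over all probes of the gene the mean was -0.46 for Tnc, whose 2 probes went opposite ways, and -1.41 for Ncam1, which has 3. The median difference per gene was -0.46, with 7 of 11 lower. A separation at 108 h was not particular to this list: the median of the other radial glia genes ran from 1.21 to 1.66 with prominin and from 1.76 to 2.24 without, and the erythroid median from -3.35 to -0.48 and from -5.74 to -4.79.

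The other filament genes lay apart from Vim. Of 12, 8 were tested, with a median of -1.18, 1 called higher and 4 lower by limma. Gfap, the astrocyte filament, stood at 8.56 and Nefh at 0.51, whereas the neuronal filaments Ina (-4.11) and Prph (-2.58) were lowest. The lipid and retinoid carriers related to Fabp7 split: 7 of 12 were tested, 3 called higher and 4 lower, with Dbi at 2.79 and Acsl3 at 2.25 against Rbp4 at -5.78 and Fabp1 at -5.71, the liver carriers. Glutamate handling split likewise, 3 higher and 3 lower of 6 tested (12 listed). Glutamine synthetase, Glul (5.29), and the transporter Slc1a1 (3.61) were highest, and the neutral amino acid transporters Slc1a5 (-4.81) and Slc1a4 (-3.76) lowest. In the endothelin system 4 of 10 genes were tested, 2 called higher and 2 lower, with Mitf (mean of its probes) at 2.51 and Gna11 at -2.12. The ligands of Ednrb were not among the tested genes.

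Between groups, none of the genes of these 6 lists was called in any of the 7 comparisons. Smallest p-values by time, pooled over treatments, were those of Mt3 (-1.55, limma adjusted p = 0.299) among radial glia genes and Ncam1 (1.87 for its lowest-p probe, limma adjusted p = 0.357) among the Ptprz1 partners. For prominin pooled over times it was Notch1 (1.73, limma adjusted p = 0.952).

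**Figure D5:**
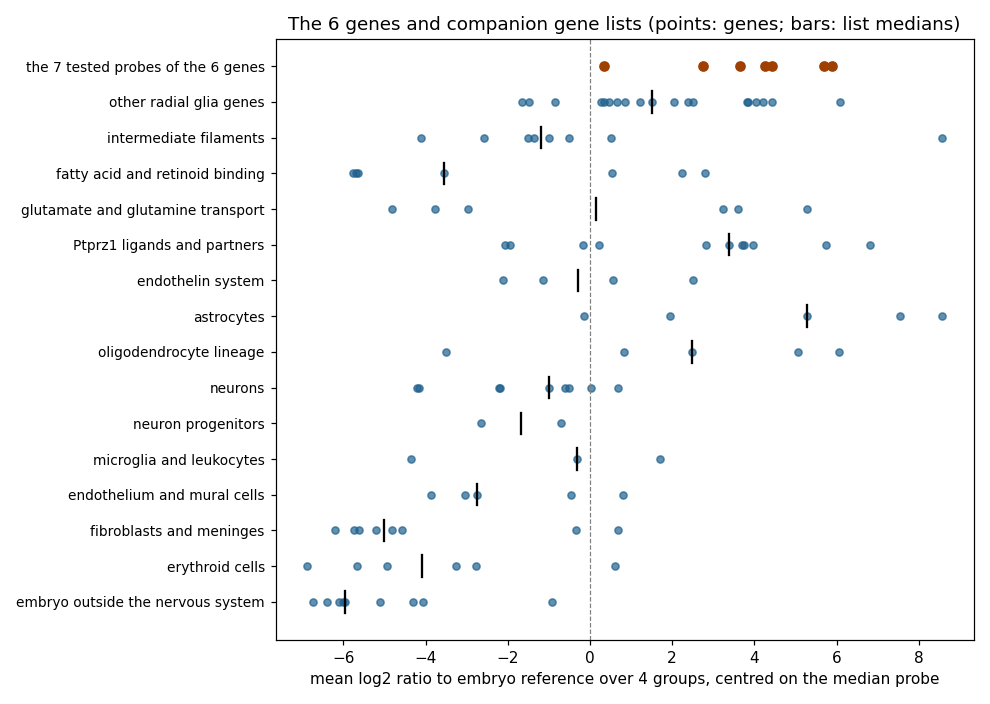
Mean log2 ratio to the embryo reference over the 4 groups, centred on the median probe (horizontal axis), for the 7 tested probes and for each gene of the companion and cell type lists; points are probes or gene means and bars list medians. Ptprz1 partners and astrocyte genes lie mostly above 0, with medians of 3.38 and 5.29, and genes of embryo tissues outside the nervous system lie below 0.

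Markers of other cell types give the setting of these levels. For comparison, limma called 30.4% of all tested probes higher and 55.8% in either direction. Of 10 astrocyte markers 5 were tested, with a median of 5.29 and 4 called higher, led by Gfap (8.56) and S100b (7.54). Of 10 oligodendrocyte lineage markers 5 were tested, and 4 were called higher, led by Olig1 (6.06) and Olig2 (5.05). The remaining marker, Pdgfra, was called lower (-3.51). Neuron markers had a median of -0.99, with 1 of 9 called higher and 4 lower, Tubb3 lowest at -4.21. Fibroblast, erythroid and embryo lists had medians of -5.01, -4.09 and -5.96, and endothelium and mural cells -2.74. Only 2 neuron progenitor and 3 microglia and leukocyte genes were tested, with medians of -1.68 and -0.32. By array, the astrocyte median ran from 3.71 to 5.86 in 24 h controls, 3.45 to 5.80 in 24 h prominin cultures, 4.51 to 6.44 in 108 h controls and 4.12 to 6.18 in 108 h prominin cultures. All 4 ranges overlapped. Among these markers, 2 genes were called with time and none with prominin. Of all tested probes, 0.0546% were called by time over both treatments and 0.0218% in prominin cultures. Hba-a1, an alpha globin of red cells, was higher at 108 h by 4.54 over both treatments (limma adjusted p = 0.00848) and by 6.19 in prominin cultures (limma adjusted p = 0.0122). Apoe, the lipid carrier of astrocytes, was higher by 2.56 over both treatments (limma adjusted p = 0.0409). Their lists did not move as a whole over both treatments. By point estimate 3 erythroid genes were higher at 108 h and 3 lower. Of the astrocyte markers 3 were higher and 2 lower, the latter Gfap (-0.31) and S100b (-0.325). Clu was higher by 2.52, close to Apoe, and was not called (limma adjusted p = 0.0569). In prominin cultures alone, 5 erythroid genes were higher by point estimate and 1 lower. All 5 astrocyte markers were higher there, S100b by only 0.04. In controls 3 erythroid genes were higher and 3 lower, and 3 astrocyte markers higher and 2 lower. The part of red cells or astrocytes in the values of the 6 genes by time was not tested. The part of astrocytes in the levels of Slc1a3, Fabp7 and Ednrb was not tested.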

How the data were processed

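Per the labels, each of 12 arrays (3 in each of 4 groups) paired a Cy5 neurosphere sample with a Cy3 embryo reference. The authors deposited log2 ratios without stating base, direction or normalization. The base was inferred from the top code of 16.61 and from small whole-number ratios, and exact 0 and the top code were set to missing. No label names the scanner or its software. Of 21738 probes, 16620 had 1 symbol, 113 several and 5005 none.

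The median over the 4532 probes that no array lacked was subtracted from each array. The 9155 probes with 2 or more values per group were fitted with limma 3.58.1 in R 4.3.3, with 4 group means and 8 contrasts. Benjamini-Hochberg adjustment ran over all tested probes at a threshold of 0.05. The fit was tested on simulated data. Exact permutations exchanged time within treatment, or treatment within time. Alternatives were scaling, codes, filter, variance model, samples fitted, replicate block, probe averaging and leaving out each array. Arrays allow no counting interval, and their number limits precision.

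The genes and lists were chosen with earlier results of these data known, and exact tests, within-array differences and motifs were added after values were seen. All member probes are named. From each list the text names, for levels, the 2 highest and 2 lowest genes, and between groups those called or up to 3 of smallest p. For likeness it names the 3 probes of highest r. Fewer are named where the text is shorter.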

Additional observations from a re-analysis of the deposited data

How the results depend on the processing

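Under the alternatives run, 1135 of 1220 values of the 7 probes kept their direction and their side of the threshold, and 85 changed sign. The count of called probes for the level stayed at 6 of 7 (5 of 6 genes with probes averaged), except with no centring or both codes kept, where Nes joined as lower and 7 of 7 were called. It stayed at 0 for each comparison between groups. Among all probes, calls for the level ran from 2797 to 7615 around 5113, for pooled time from 2 to 34 around 5, and for time in prominin cultures from 0 to 21 around 2. They ran from 0 to 11 for time in controls, and from 0 to 26, 1, 25 and 23 for prominin at 24 h, at 108 h, pooled and by time. Without centring 550 of 6214 level calls were higher, against 2783 of 5113. Fewer probes were measured at 24 h than at 108 h. Spot signals were not analysed here, so signal over background cannot be given.

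None of the values that changed sign was called, except the Nes level with no centring or both codes kept. The cause was not tested unless given. With no centring they were, for Nes, -1.26 (level) and -0.35 (prominin at 108 h); for Vim, 0.11 (time, controls), 0.32 (prominin at 24 h) and -1.44 (prominin by time); for Fabp7, 0.66 (prominin at 24 h). Ednrb then gave 0.59 and -0.18 (time in controls and in prominin cultures), -0.99 (prominin at 108 h) and -0.77 (prominin by time). Slc1a3 gave -0.11 (L19565, pooled time) and 0.59 (U75378, time in controls). Centring on each array's own probes gave -0.22 (Nes level), 0.31 (Fabp7, prominin at 24 h), -0.10 (L19565, pooled time) and -0.029 (Vim, prominin by time). Quantile normalization gave -0.0053 and -0.46 (Ednrb, time in prominin cultures and pooled), -0.50 and 0.22 (Fabp7, time in controls and prominin at 24 h), -0.94 (L19565, pooled time) and -0.000429 (Vim, prominin by time). With zeros kept the values were 0.46 and -0.0005 (Ednrb, time in controls and prominin at 108 h), 0.30 and 0.30 (Fabp7, pooled time and prominin at 24 h), 0.26 and -0.65 (Nes, pooled time and level), 0.46 (U75378, time in controls) and -0.094 (Vim, prominin by time). With both codes kept they were 0.60, -0.44 and -0.21 (Ednrb, time in controls, prominin at 108 h and by time), 0.041 and 0.66 (Fabp7, pooled time and prominin at 24 h), 0.0082 and -1.12 (Nes, pooled time and level), 0.60 (U75378, time in controls), and 0.12, 0.32 and -0.88 (Vim, time in controls, prominin at 24 h and by time). Averaging the probes of Slc1a3 gave -0.39 for time in controls and -1.22 pooled, where L19565 gave 1.49 and 0.08: U75375, low and measured at 108 h only, then enters.

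Leaving out 1 array at a time changed signs in small differences. Time in controls ran from -0.43 to 0.078 (Ednrb), -0.33 to 0.40 (Fabp7), -0.66 to 0.62 (Nes) and -0.33 to 0.041 (U75378). Time in prominin cultures ran from -0.45 to 0.075 (Fabp7) and -0.47 to 0.14 (Nes), and pooled time from -0.27 to 0.11 (Fabp7), -0.43 to 0.20 (Nes) and -0.41 to 0.63 (L19565). Prominin at 108 h ran from -0.29 to 0.41 (Ednrb), -0.64 to 0.30 (Ptprz1), -0.58 to 0.20 (U75378) and -0.25 to 0.13 (Vim), prominin at 24 h from -0.45 to 0.28 (Fabp7), pooled from -0.049 to 0.99 (L19565), and by time from -0.59 to 0.11 (Fabp7) and -0.85 to 0.46 (Nes). Without a change of sign, some values moved by over 1.5 times: time in controls for Ptprz1 ran from -1.44 to -0.65 (the latter without 24 h control array 2), and pooled prominin for Nes from 0.52 (without 24 h control array 1) to 1.15. The pooled time difference of Ptprz1 ran from -1.87 to -1.37.

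Same-numbered arrays deviated together at a median r of 0.050, over 0.1 in 3 of 18 pairs, and different-numbered arrays at -0.021, over 0.1 in 1 of 36. Pairing was to be taken only where every same-numbered pair exceeded 0.1, so it was not. That 9 of 12 arrays correlated best with their own number is a hint of pairing from the data, not from the labels. With the replicate block the estimates were the same (Ptprz1, pooled time, -1.59) and the counts of called probes were again 6 for the level and 0 between groups.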
